A study of Mus musculus with 6 samples.

Results

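The 45 genes described here encode the nucleolar machinery of ribosome biogenesis. They were chosen by name from the 55364 genes of the table, as genes whose products transcribe ribosomal RNA (rRNA), process it or assemble it into ribosomal subunits, by a rule that uses no measured value, although earlier results of these data were known when the list was made. All 45 were found, all are annotated as protein coding, and all passed the filter on low values, which asked for 1 TPM or more in 3 or more libraries and left 17353 genes.

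Embryos from BDF1 females and BDF1 males were fertilized in vitro and cultured in KSOM, and zygotes were injected with an siRNA against *Yy1* (*Yy1* KD, 3 libraries) or with a control siRNA (control KD, 3 libraries). YY1 is a zinc finger transcription factor. Each library was made from 10 pooled morulae, of a sex that the labels do not give, collected 64 h after insemination. Every zygote was injected, so the comparison contains no embryo without siRNA, and the knockdown acts on all cells of the embryo. Values are TPM, in which read pairs are corrected for the length of a gene's exons and every library is scaled to the same sum, so that levels of different genes can be compared per length.

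Ribosomes are built mainly in the nucleolus. RNA polymerase I transcribes a long rRNA precursor, and the small subunit processome, a large particle that gathers on the precursor around the U3 small nucleolar RNA (snoRNA), folds and cleaves the part that becomes the small subunit. Small nucleolar ribonucleoproteins (snoRNPs) modify the precursor at sites chosen by their guide RNAs, those with box C/D by methylation of the ribose and those with box H/ACA by pseudouridylation, while other factors process and assemble the large subunit. The mouse embryo inherits maternal ribosomes and lacks a mature nucleolus in the zygote, and its own rRNA synthesis and nucleoli develop over the cleavage stages that precede the morula.

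Promoters were available for 37 of the 45 members in the RefSeq table (GRCm38.p6, the assembly of mm10), as windows from 250 bases before to 50 bases after each transcription start. The 100 bases before the start are shown for the members called higher or lower in *Yy1* KD morulae that have a promoter in the table, 5′ to 3′ on the strand of the gene, with the 6 higher ones first. Capitals mark the E-box CACGTG, the site bound by MYC and related basic helix-loop-helix proteins. On the minus strand lie *Utp20* at chr10:88826815-88826914, *Nol11* at chr11:107189382-107189481, *Wdr12* at chr1:60098501-60098600, *Utp18* at chr11:93885767-93885866, *Ncl* at chr1:86359456-86359555 and *Polr1c* at chr17:46248046-46248145. On the plus strand lie *Wdr43* at chr17:71616115-71616214, *Polr1b* at chr2:129100896-129100995 and *Nop10* at chr2:112261826-112261925.
Utp20: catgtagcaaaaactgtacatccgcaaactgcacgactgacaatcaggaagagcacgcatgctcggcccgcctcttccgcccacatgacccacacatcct
Nol11: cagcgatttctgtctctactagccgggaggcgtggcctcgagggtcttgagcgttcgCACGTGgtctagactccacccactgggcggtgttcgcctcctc
Wdr12: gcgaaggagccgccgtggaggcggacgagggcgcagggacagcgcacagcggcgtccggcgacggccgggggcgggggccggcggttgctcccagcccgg
Utp18: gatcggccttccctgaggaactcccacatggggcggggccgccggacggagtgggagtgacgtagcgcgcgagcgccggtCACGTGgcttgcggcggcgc
Wdr43: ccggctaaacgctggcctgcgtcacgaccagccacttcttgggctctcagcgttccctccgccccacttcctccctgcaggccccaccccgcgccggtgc
Ncl: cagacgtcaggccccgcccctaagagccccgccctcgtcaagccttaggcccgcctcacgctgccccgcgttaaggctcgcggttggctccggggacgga
Polr1b: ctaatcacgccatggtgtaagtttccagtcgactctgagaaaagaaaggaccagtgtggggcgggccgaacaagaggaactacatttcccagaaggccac
Polr1c: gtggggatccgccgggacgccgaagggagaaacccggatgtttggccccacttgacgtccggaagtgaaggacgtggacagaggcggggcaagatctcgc
Nop10: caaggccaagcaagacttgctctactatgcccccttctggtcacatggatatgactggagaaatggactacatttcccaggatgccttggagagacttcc

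The E-box was present in the windows of 9 of the 37 members (24.3%), against 8.09% of all 27025 genes with a promoter in the table and 11.5% of the 9767 tested genes with one. Of the members called higher in *Yy1* KD morulae, 4 of the 6 with a promoter had it (*Utp20*, *Nol11*, *Utp18* and *Wdr43*), as did 0 of the 3 called lower and 5 of the 28 that were not called (*Utp4*, *Pes1*, *Nop2*, *Rrn3* and *Imp4*). Among all genes of the table, 15.6% of those called higher and 13.0% of those called lower had an E-box. Of 109 other ribosome biogenesis genes with a promoter, 19 had an E-box (17.4%). These counts are descriptions of letters in the windows, and binding was not measured. With 6 and 3 called members, the shares of those called higher, called lower and not called cannot be compared. Taking the base of the start as 1 and the base before it as -1, the first base of the E-box was at -43 in *Nol11*, -20 in *Utp18*, 18 in *Wdr43* and 38 in *Utp20*.

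The YY1 consensus GCCATNTT, which reads AANATGGC on the other strand, was searched in the same windows on both strands. It was found in 2 of the 37 members (5.41%), *Utp20* and *Imp4*, against 6.96% of all genes with a promoter and 10.4% of the tested ones. It was found in 1 of the 6 members called higher and 0 of the 3 called lower, and in 14.1% of the 192 genes called higher and 27.7% of the 517 called lower across the table. The members called are too few for these shares to be compared. The 2 motifs lie within the same window in *Utp20* and in *Imp4*. In *Imp4*, which was not called (log2 fold change -0.39), the E-box began at -121 and is not shown. The 28 bases around each of the following matches are shown with the match in capitals. They are the YY1 match and the E-box of *Utp20* (minus strand, chr10:88826789-88826816 and chr10:88826765-88826792), the E-box of *Wdr43* (plus strand, chr17:71616221-71616248) and the YY1 match of *Imp4* (plus strand, chr1:34439773-34439800).
Utp20 YY1: ctggctttccAACATGGCggcgcccagc
Utp20 E-box: cagcggcactaactaCACGTGaggaaaa
Wdr43 E-box: gcccgggcgaaCACGTGgctgccgcgga
Imp4 YY1: tcctccattcGCCATCTTaagatggggc

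The match of *Utp20* began at base 9 after the start and read AACATGGC on the strand of the gene, whereas that of *Imp4* began at -46 and read GCCATCTT.

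**Figure D1:**
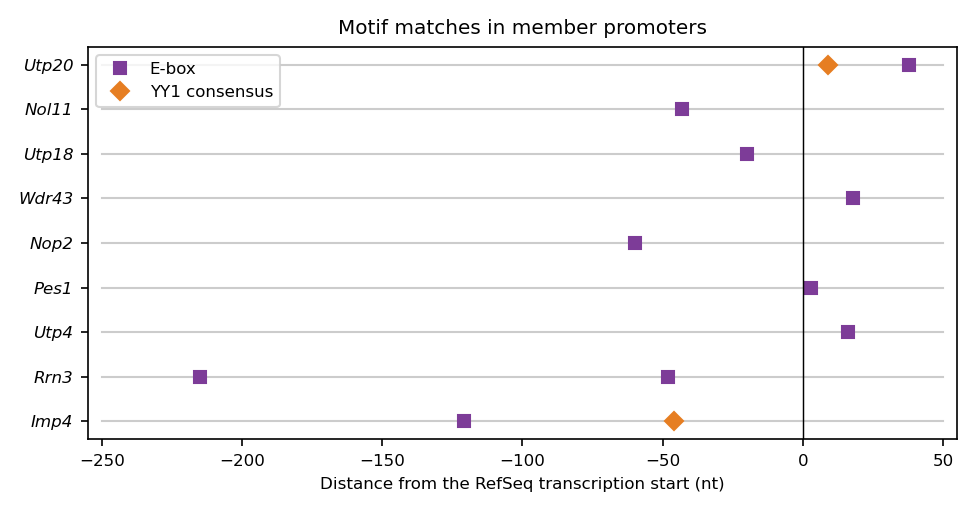
Matches to the E-box (squares) and to the YY1 consensus (diamonds) in the promoter windows of the 9 members that had either, against distance from the RefSeq transcription start in nt, with genes in order of fold change from the highest at the top. The 4 uppermost genes were called higher in *Yy1* KD morulae, and their E-boxes lie between -43 and 38.

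*Yy1* itself, the target, was at 96.0, 100.2 and 89.8 TPM in control KD and 8.73, 8.90 and 8.32 TPM in *Yy1* KD libraries, 9.07% of the control (log2 fold change -3.32, standard error 0.09, limma adjusted p = 6.71e-05). Multiplying TPM by exon length recovered between 11793561 and 24417441 read pairs on genes per library. Markers of the morula were present in every library, with 1 of 10 called (*Tfap2c*, lower, log2 fold change -0.54). Their summed level was 2141 to 2442 TPM in control KD and 1856 to 2058 TPM in *Yy1* KD libraries. Of those not called, *Sox2*, *Cdh1* and *Krt8* had estimates of -0.86, -0.80 and -0.45 (limma adjusted p = 0.0942, 0.125 and 0.231). Those of *Nanog*, *Gata3*, *Pou5f1*, *Tead4* and *Klf5* were -0.22, -0.14, -0.06, -0.05 and -0.04, and that of *Cdx2* was 0.0018. Of 12 markers of cumulus and granulosa cells, which surround the oocyte, 5 were at 0 in every library (*Has2*, *Ptx3*, *Tnfaip6*, *Cyp19a1* and *Fshr*), and their summed level was 9.13 to 11.2 TPM in control KD and 10.02 to 11.6 TPM in *Yy1* KD libraries, most of it from *Amhr2*. The part of the lower summed level of morula markers in the results was not tested.

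In *Yy1* KD morulae, 7 of the 45 members were called higher and 3 lower at an adjusted p under 0.05 (limma on log2(TPM + 1), two-sided, Benjamini-Hochberg over all 17353 genes). Across all genes tested, 1.92% were called higher and 4.20% lower. Among the 6665 tested genes with a mean TPM within the range of the members, 15.0 to 3204, these shares were 3.24% and 6.89%. The share of members called higher (15.6%) was above this background and the share called lower (6.67%) was near it. The background shares only the range of levels with the members. Its median level was 42.6 TPM against 106 TPM, and its median standard error was 0.12 against 0.08. The members higher in *Yy1* KD morulae were *Utp20*, *Nol11*, *Utp11*, *Utp18* and *Wdr43* of the small subunit processome, *Wdr12* of large subunit assembly, and *Ncl*, which encodes nucleolin. The lower ones were *Polr1b* and *Polr1c*, which encode subunits of RNA polymerase I, and *Nop10* of the box H/ACA snoRNP. With quantile normalization and with median-ratio scaling, 8 members were called higher and 1 lower in each case, and with a correction for GC content and length 8 were called higher and 0 lower. *Polr1b* was the member that kept its lower call under both scalings, and the estimates of *Polr1c* and *Nop10* stayed below 0. Over all genes, the calls were 333 higher and 728 lower, and 388 and 548 with quantile normalization.

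The log2 fold changes of the members lay between -0.57 and 0.83, with a median of 0.16, whereas the median over all genes tested was -0.02. The estimate was above 0 for 31 members and below 0 for 14. At an unadjusted p under 0.05, 19 members were higher and 6 lower, where 9.35% and 14.4% of all genes tested were. With limma-voom on read pairs recovered from TPM, 14 members were higher and 4 lower, where 5.03% and 7.87% of all genes tested were. The 3 *Yy1* KD values lay above the 3 control KD values in 21 members and below them in 8, where 12.9% and 17.2% of all genes did. Among the genes within the members' range of mean TPM, 16.2% lay above and 22.3% below. At an unadjusted p under 0.05, 13.1% of the genes in that range were higher and 20.1% lower. The median deviation of the members from their control mean, on the log2(TPM + 1) scale, was 0.12, 0.17 and 0.19 in the 3 *Yy1* KD libraries and 0.04, -0.02 and -0.01 in the 3 control KD libraries. In bulk samples of whole embryos, fewer cells of a type and less RNA per cell cannot be told apart, and a shift of all genes together would not be seen in TPM.

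**Figure D2:**
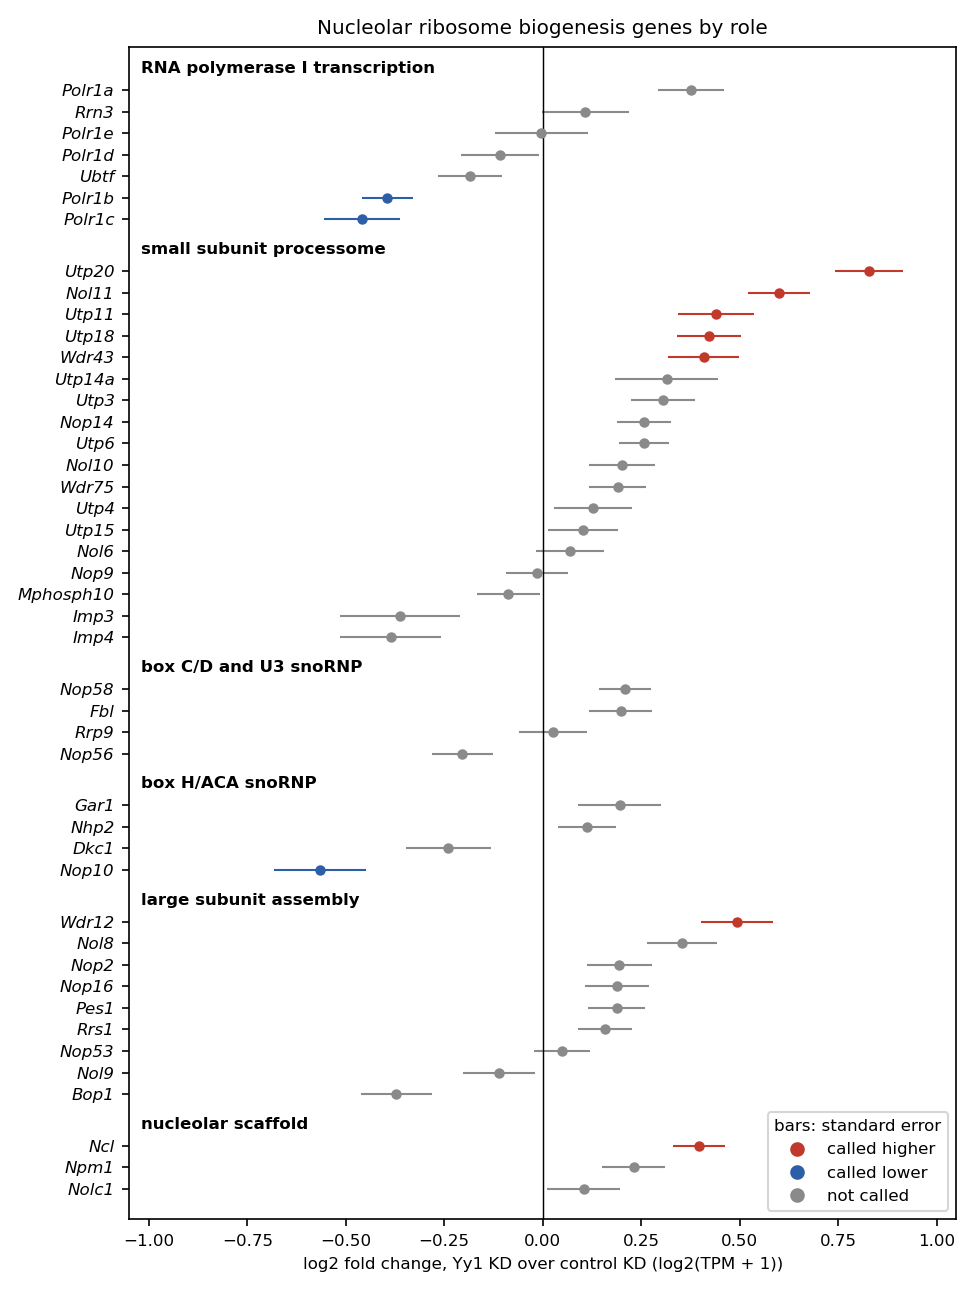
Log2 fold change of each of the 45 members (x axis, *Yy1* KD over control KD on the log2(TPM + 1) scale) by role, with the standard error from limma as bars. The 7 genes in red were called higher and the 3 in blue lower. Of the 7 in red, 5 belong to the small subunit processome, and the genes in blue belong to the RNA polymerase I and box H/ACA groups.

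RNA polymerase I was represented by 7 genes, 2 of which fell and none of which rose by the test. Across all genes tested, 4.20% fell and 1.92% rose, and 7 genes are too few for a comparison of shares. The median log2 fold change of the group was -0.11. *Polr1b* (ENSMUSG00000027395.15, chromosome 2, 129100995 to 129126594, GRCm38) encodes the second-largest subunit, which forms the active centre together with the largest. It was at 87.6, 87.6 and 88.7 TPM in control KD and 67.2, 66.7 and 66.1 TPM in *Yy1* KD libraries. The replicates of each group were within about 1 TPM of their mean, and the knockdown level was 75.8% of the control (log2 fold change -0.39, standard error 0.06, limma adjusted p = 0.0242). *Polr1c* (ENSMUSG00000067148.15, chromosome 17, 46243920 to 46248054), whose product is shared with RNA polymerase III, was at 62.0, 73.1 and 67.2 TPM in control KD and 51.6, 44.7 and 49.97 TPM in *Yy1* KD libraries. The groups did not overlap (log2 fold change -0.46, standard error 0.10, limma adjusted p = 0.0448).

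*Polr1a* (ENSMUSG00000049553.11, chromosome 6, 71909053 to 71984935), which encodes the largest subunit, had an estimate in the other direction and missed the threshold. It was at 66.7, 66.3 and 74.5 TPM in control KD and 87.5, 86.6 and 96.1 TPM in *Yy1* KD libraries (log2 fold change 0.38, standard error 0.08, limma adjusted p = 0.0504). All 3 *Yy1* KD values were above all 3 control KD values, and it was called higher in 7 of the 18 alternatives, median-ratio scaling, quantile normalization and limma-voom among them. It shares exonic sequence with *Gm26628*, and read pairs on several genes were divided among them without regard to strand. The ratio of *Polr1a* to *Polr1b*, which does not depend on how a library is scaled, was 0.762, 0.758 and 0.841 in control KD and 1.30, 1.30 and 1.45 in *Yy1* KD libraries. This ratio, chosen after its values were seen, did not overlap between groups (exact permutation p = 0.1, two-sided, which is the lowest value possible with groups of 3).

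The other 4 genes of the group were not called. *Polr1d*, whose product is also shared with RNA polymerase III, had a log2 fold change of -0.11, and *Polr1e*, which encodes a subunit particular to RNA polymerase I, was at 24.5 TPM on average in both groups. *Rrn3* encodes the factor that makes the polymerase competent to initiate, and its log2 fold change was 0.11 (standard error 0.11). *Ubtf* encodes UBF, which binds along active rRNA genes. It was the most abundant of the 7, at 315, 296 and 298 TPM in control KD and 244, 288 and 268 TPM in *Yy1* KD libraries, and its groups did not overlap, but the difference did not pass the test over all genes (log2 fold change -0.18, standard error 0.08, limma adjusted p = 0.227).

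Of the 18 members listed under the small subunit processome, 5 rose and 0 fell in the limma test, beside 1.92% and 4.20% of all genes tested. Their median log2 fold change was 0.23. At an unadjusted p under 0.05, 11 were higher and 1 lower, where 9.35% and 14.4% of all genes tested were. Of 38 further small subunit genes, 1 rose and 1 fell in the limma test, with a median of 0.03. At an unadjusted p under 0.05, 7 of these were higher and 4 lower (18.4% and 10.5%). Their estimates were above 0 in 24 and below 0 in 14. *Utp20* (ENSMUSG00000004356.8, minus strand of chromosome 10, 88746607 to 88826804) encodes a very large scaffold protein of the particle and had the largest change of all members. It was at 78.3, 78.4 and 70.8 TPM in control KD and 147, 127 and 132 TPM in *Yy1* KD libraries. The lowest knockdown library was far above the highest control library, and the means were 75.8 ± 4.35 and 135 ± 10.5 TPM (SD, n = 3 each). The log2 fold change was 0.83 (standard error 0.09, limma adjusted p = 0.00949). None of its exons overlap another annotated gene, whereas 4 of the 10 called members share exonic sequence with one (*Nol11* with *Gm11715*, *Wdr43* with *CT010429.2*, *Wdr12* with *Carf*, and *Ncl* with *Gm24148*, *Snora75* and *mmu-mir-3535*). *Utp20* was called under all 18 alternatives, with a log2 fold change between 0.77 and 0.92.

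*Nol11* (ENSMUSG00000018433.14, minus strand of chromosome 11, 107166663 to 107189381) and *Wdr43* (ENSMUSG00000041057.10, chromosome 17, 71615895 to 71659031) encode proteins of the UTP-A complex, the first part of the processome to join the rRNA precursor. *Nol11* was at 175, 162 and 158 TPM in control KD and 269.5, 239 and 244 TPM in *Yy1* KD libraries, 152% of the control (log2 fold change 0.60, standard error 0.08, limma adjusted p = 0.0130). *Wdr43* was at 406, 344 and 369 TPM in control KD and 462, 493 and 531 TPM in *Yy1* KD libraries, 133% of the control (log2 fold change 0.41, standard error 0.09, limma adjusted p = 0.0484). The groups did not overlap for either gene. The other UTP-A genes among the members described here, *Utp4*, *Utp15* and *Wdr75*, were not called. Their log2 fold changes were 0.13, 0.10 and 0.19, and components outside the member list are not included.

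*Utp18* (ENSMUSG00000054079.12, minus strand of chromosome 11, 93859243 to 93885766) encodes a component of the UTP-B complex. It was at 119.8, 129 and 134 TPM in control KD and 171, 183 and 159.9 TPM in *Yy1* KD libraries (log2 fold change 0.42, standard error 0.08, limma adjusted p = 0.0352). *Utp6*, of the same complex, was at 168, 159 and 164 TPM in control KD and 189, 201 and 197 TPM in *Yy1* KD libraries, without overlap, and missed the threshold (log2 fold change 0.26, standard error 0.06, limma adjusted p = 0.0663). *Utp11* (ENSMUSG00000028907.7, minus strand of chromosome 4, 124678160 to 124693600), a further processome gene, was at 34.0, 31.8 and 32.5 TPM in control KD and 49.2, 40.8 and 44.8 TPM in *Yy1* KD libraries (log2 fold change 0.44, standard error 0.10, limma adjusted p = 0.0482). For each of these genes every knockdown library was above every control library.

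The processome genes *Utp3*, *Nop14* and *Nol10* also had groups that did not overlap and were not called. Their log2 fold changes were 0.31, 0.26 and 0.20. *Utp14a* had the highest coefficient of variation of all members among control KD libraries, 17.7%, with values of 62.2 to 88.9 TPM, and its estimate of 0.31 (standard error 0.13) did not pass the test. The MPP10 complex, which binds the U3 snoRNA, was the part of the processome in which all estimates were below 0. *Imp4* was at 16.0, 17.3 and 18.1 TPM in control KD and 14.8, 11.7 and 12.3 TPM in *Yy1* KD libraries (log2 fold change -0.39, standard error 0.13, limma adjusted p = 0.129). *Imp3* had a log2 fold change of -0.36 (standard error 0.15) and *Mphosph10* of -0.09 (standard error 0.08), and none of the 3 was called. The remaining processome genes, *Nol6* of the UTP-C complex and *Nop9*, differed by 0.07 and -0.01 on the log2 scale.

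**Figure D3:**
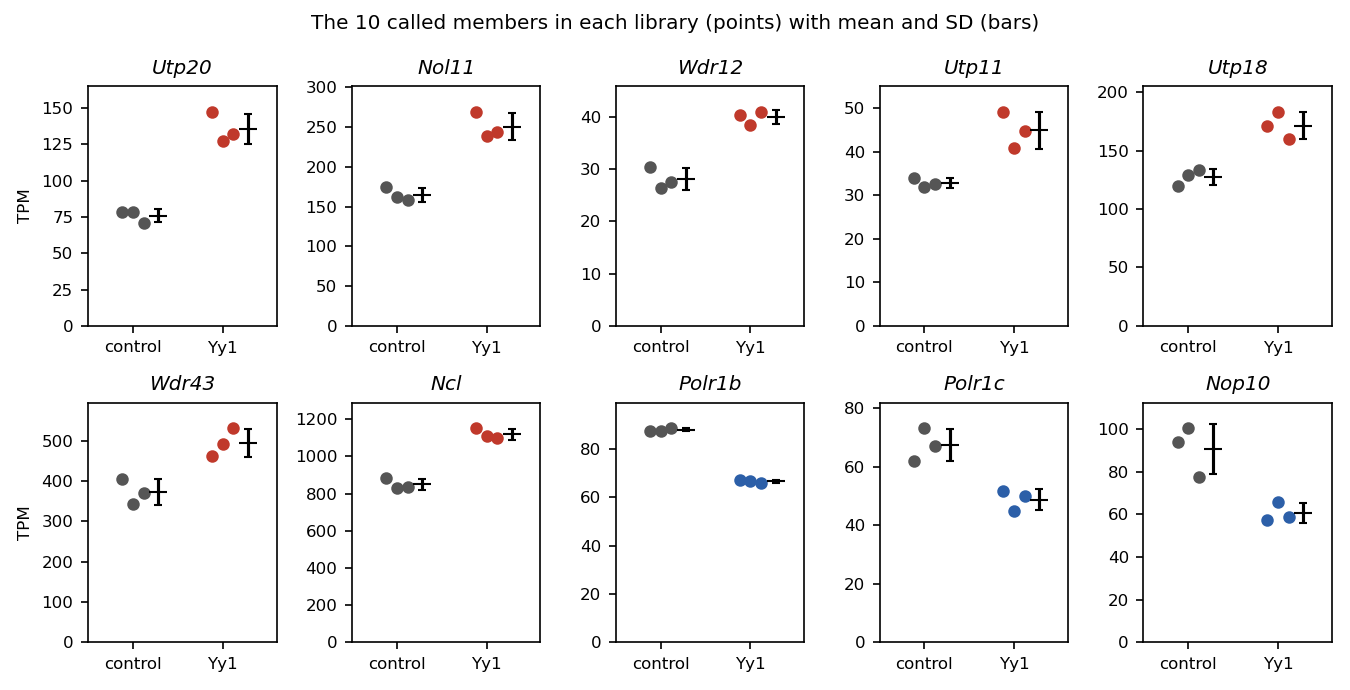
TPM (y axis, from 0) of the 10 called members in each control KD (gray) and *Yy1* KD (colored) library, with the mean and SD of 3 libraries as bars beside the points. In none of the 10 genes do the points of the groups overlap. *Utp20* has the largest change and *Polr1b* the smallest spread.

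The core proteins of the box C/D snoRNP and the U3-specific protein gave no call. *Fbl* encodes fibrillarin, the methyltransferase of the particle. It was at 149, 146 and 137 TPM in control KD and 154, 178 and 165 TPM in *Yy1* KD libraries (log2 fold change 0.20, standard error 0.08, limma adjusted p = 0.192). *Nop58* and *Nop56* encode paired core proteins and had estimates on different sides of 0. *Nop58* was at 162, 149 and 156 TPM in control KD and 175, 183 and 182 TPM in *Yy1* KD libraries (log2 fold change 0.21, limma adjusted p = 0.118). *Nop56* was at 238, 229 and 264 TPM in control KD and 213, 203 and 218 TPM in *Yy1* KD libraries (log2 fold change -0.20, limma adjusted p = 0.171). The ratio of *Nop58* to *Nop56* was 0.680, 0.651 and 0.591 in control KD and 0.823, 0.903 and 0.835 in *Yy1* KD libraries, again without overlap (exact permutation p = 0.1, chosen after its values were seen). Exonic sequence is shared by *Nop56* with *Idh3b*, *Snord57*, *Gm23187*, *Gm23650* and *Gm24451*, and by *Nop58* with *Gm26293*. *Rrp9*, which encodes a protein of the U3 snoRNP, had a log2 fold change of 0.03. At an unadjusted p under 0.05, 3 of the 4 genes differed, where 23.8% of all genes tested did, and limma-voom called 1, *Nop58*, where it called 12.9% of all genes.

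The box H/ACA snoRNP is the pseudouridylation enzyme of the nucleolus, and its 4 proteins are also found in telomerase. Of these, *Nop10* (ENSMUSG00000027133.3, chromosome 2, 112261926 to 112263269) fell. It was at 94.1, 100.4 and 77.6 TPM in control KD and 57.3, 65.9 and 58.97 TPM in *Yy1* KD libraries, 67.0% of the control (log2 fold change -0.57, standard error 0.12, limma adjusted p = 0.0412). This was the largest decrease among the members, and also one with a wide spread between control libraries. *Dkc1*, which encodes dyskerin, the pseudouridine synthase, was at 179, 148 and 182 TPM in control KD and 138, 135 and 157 TPM in *Yy1* KD libraries, with overlap between groups (log2 fold change -0.24, limma adjusted p = 0.235). *Nhp2* was by far the most abundant of the 4, at 801, 825 and 864 TPM in control KD and 952, 883 and 857 TPM in *Yy1* KD libraries, and *Gar1* was at 104 ± 9.28 and 119 ± 11.9 TPM (SD, n = 3 each). Neither was called. The ratio of *Nop10* to *Nhp2* was 0.118, 0.122 and 0.0898 in control KD and 0.0602, 0.0746 and 0.0688 in *Yy1* KD libraries. The groups did not overlap (exact permutation p = 0.1, the lowest value possible), and the pair was chosen after its values were seen. *Nhp2* shares exonic sequence with *Rmnd5b*.

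Among 9 genes of large subunit assembly, *Wdr12* rose and 0 fell, beside 1.92% and 4.20% of all genes tested. The median log2 fold change of the group was 0.19. WDR12, PES1 and BOP1 form the PeBoW complex, which is needed to mature the rRNA of the large subunit. Exonic sequence is shared by *Wdr12* with *Carf* and by *Bop1* with *Mroh1*. *Wdr12* (ENSMUSG00000026019.15, minus strand of chromosome 1, 60069785 to 60098645) was at 30.4, 26.3 and 27.5 TPM in control KD and 40.3, 38.4 and 40.95 TPM in *Yy1* KD libraries (log2 fold change 0.49, standard error 0.09, limma adjusted p = 0.0322). *Bop1* had an estimate in the other direction, with 58.6, 68.2 and 58.5 TPM in control KD and 45.7, 48.2 and 48.3 TPM in *Yy1* KD libraries (log2 fold change -0.37, standard error 0.09, limma adjusted p = 0.0620). *Pes1* was at 155, 161 and 142 TPM in control KD and 179, 172 and 171 TPM in *Yy1* KD libraries (log2 fold change 0.19, limma adjusted p = 0.175). The groups did not overlap for any of the 3 genes, and the ratio of *Wdr12* to *Bop1* went from 0.458 ± 0.0673 to 0.843 ± 0.0428 (SD, n = 3 each; exact permutation p = 0.1, chosen after its values were seen).

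The other 6 genes of this group were not called. *Nol8* came nearest, at 48.2, 44.3 and 45.6 TPM in control KD and 63.6, 59.6 and 54.4 TPM in *Yy1* KD libraries (log2 fold change 0.35, standard error 0.09, limma adjusted p = 0.0674). *Nop2*, which encodes an rRNA cytosine methyltransferase, *Nop16* and *Rrs1* had log2 fold changes of 0.19, 0.19 and 0.16. *Nop53* and *Nol9*, the latter encoding a polynucleotide kinase that acts on an rRNA spacer, differed by 0.05 and -0.11.

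The 3 abundant nucleolar proteins that organize the nucleolus and accompany the precursor had estimates above 0, and *Ncl* rose. *Ncl* (ENSMUSG00000026234.12, minus strand of chromosome 1, 86344719 to 86359400) was at 883, 829 and 838 TPM in control KD and 1152, 1108 and 1097 TPM in *Yy1* KD libraries, 132% of the control (log2 fold change 0.40, standard error 0.07, limma adjusted p = 0.0252). *Npm1*, which encodes nucleophosmin, was the most abundant member, at 2983, 2904 and 2952 TPM in control KD and 3655, 3469 and 3263 TPM in *Yy1* KD libraries. The groups did not overlap, and *Npm1* was not called (log2 fold change 0.23, standard error 0.08, limma adjusted p = 0.140), although limma-voom on recovered read pairs called it (log2 fold change 0.25, adjusted p = 0.00400). *Nolc1*, which encodes a chaperone of snoRNPs, was at 802, 748 and 733 TPM in control KD and 728, 859 and 872 TPM in *Yy1* KD libraries, with overlap.

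The 45 members together summed to 10253, 9945 and 10019 TPM in control KD and 11629, 11511 and 11263 TPM in *Yy1* KD libraries. Without the 4 members of highest mean level (*Npm1*, *Ncl*, *Nhp2* and *Nolc1*) the sums were 4785, 4639 and 4632 TPM in control KD and 5143, 5193 and 5175 TPM in *Yy1* KD libraries. The sum was higher in every *Yy1* KD library on both counts. Levels ranged widely between members, from 15.0 TPM for *Imp4* to 3204 TPM for *Npm1* as means over all 6 libraries, with a median of 106 TPM, against 8.46 TPM over all genes tested. These levels are divided by the total exon length of a gene, 924 to 11955 nt in the members, and a gene with long retained or alternative exons is thereby given a low TPM. *Wdr12* had the longest, and *Imp4* had 8553 nt.

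**Figure D4:**
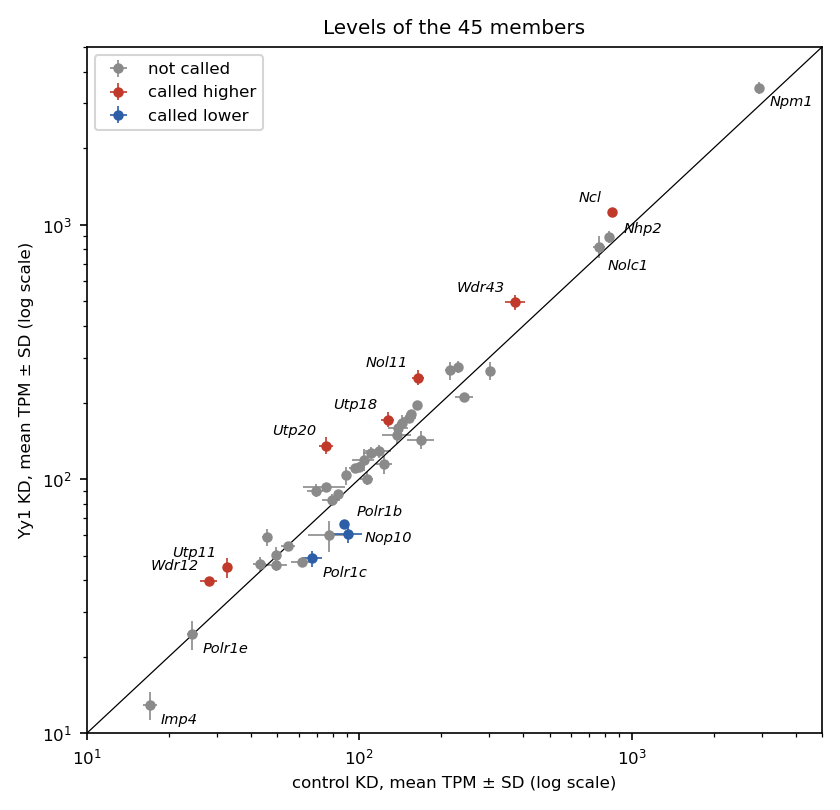
Mean TPM of each member in control KD (x axis) and *Yy1* KD (y axis) morulae, on log scales, with the SD of 3 libraries as bars and the line of equal levels. Members called higher (red) and lower (blue) lie close to the line, and the most abundant genes, *Npm1*, *Ncl*, *Nhp2* and *Nolc1*, lie on it or above it.

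The spread between replicates was small. The median coefficient of variation of a member was 5.58% among control KD and 5.82% among *Yy1* KD libraries, and the median standard error of the fold change was 0.08, against 0.12 over the genes within the members' range of mean TPM and 0.21 over all genes tested. Each of the 10 called members had groups that did not overlap (exact permutation p = 0.1 for each, the lowest value possible). These genes were picked by limma on the same libraries, so this adds no support to their calls. When single libraries were left out, however, the number of calls dropped steeply, as it did over all genes. *Utp20* was called in all 6 such fits and *Nol11* in 4, with adjusted p of 0.0525 without control KD replicate 2 and 0.0615 without control KD replicate 3. The other 8 were called in 0 of these fits, whichever of the 6 libraries was left out, while their direction was the same in all of them.

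A further 127 genes of the same pathway were listed beside the members, and all passed the filter. Of these, 7 rose and 4 fell, 5.51% and 3.15%, beside 1.92% and 4.20% of all genes tested. Among the genes within the members' range of mean TPM, 3.24% rose and 6.89% fell. That range is not the one of the 127 genes, which had mean TPM of 4.14 to 1244. The called genes are too few for these shares to be compared closely. The median log2 fold change was 0.06, with estimates above 0 in 84 and below 0 in 43. Among 13 further genes of RNA polymerase I, *Taf1a*, which encodes a subunit of the factor that selects the rRNA promoter, rose (log2 fold change 0.65, limma adjusted p = 0.0210). Among 38 further small subunit genes, the helicase gene *Ddx10* rose (0.50) and *Rrp7a* fell (-0.64). Among 52 further large subunit genes, the helicase gene *Ddx21* rose (0.36), while *Rpf2*, needed to bring in the 5S particle, and *Rrp1b* fell (-0.64 and -0.45).

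The called genes of the wider pathway with the largest fold changes belong to the nuclear exosome, which trims rRNA precursors from their 3′ ends. *Exosc10* encodes a nuclease of the nucleolar form of the complex. It was at 50.3, 55.9 and 55.5 TPM in control KD and 101.2, 97.7 and 110.4 TPM in *Yy1* KD libraries (log2 fold change 0.92, standard error 0.08, limma adjusted p = 0.00632). *Exosc2*, which encodes an RNA-binding subunit, was at 43.3, 37.8 and 42.5 TPM in control KD and 14.6, 16.3 and 11.8 TPM in *Yy1* KD libraries (log2 fold change -1.48, standard error 0.14, limma adjusted p = 0.00632), and shares exonic sequence with *Gm13427*. Both kept their call whichever of the 6 libraries was left out, whereas each of the other 9 called genes kept it in 0 to 3 of these fits. The list of 24 genes of snoRNP assembly and the exosome had 4 that rose and 1 that fell, beside 1.92% and 4.20% of all genes tested. The median log2 fold change of this list was 0.04. *Exosc9*, a subunit of the ring (0.40), and the snoRNP assembly genes *Ruvbl1* (0.43) and *Znhit6* (0.40) also rose. Of the exosome genes that were not called, *Exosc3*, *Exosc4*, *Exosc5*, *Exosc7* and *Exosc8* had log2 fold changes of -0.21, -0.11, -0.16, -0.28 and -0.14. Those of *Exosc1* and *Exosc6* were 0.24 and 0.07, and that of the cofactor helicase *Mtrex* was -0.40. *Dis3*, *C1d* and *Mphosph6*, also not called, had 0.21, 0.24 and -0.23. *Exosc9* shares exonic sequence with *Ccna2*. *Ruvbl1* encodes an ATPase that is also a subunit of chromatin remodelers.

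**Figure D5:**
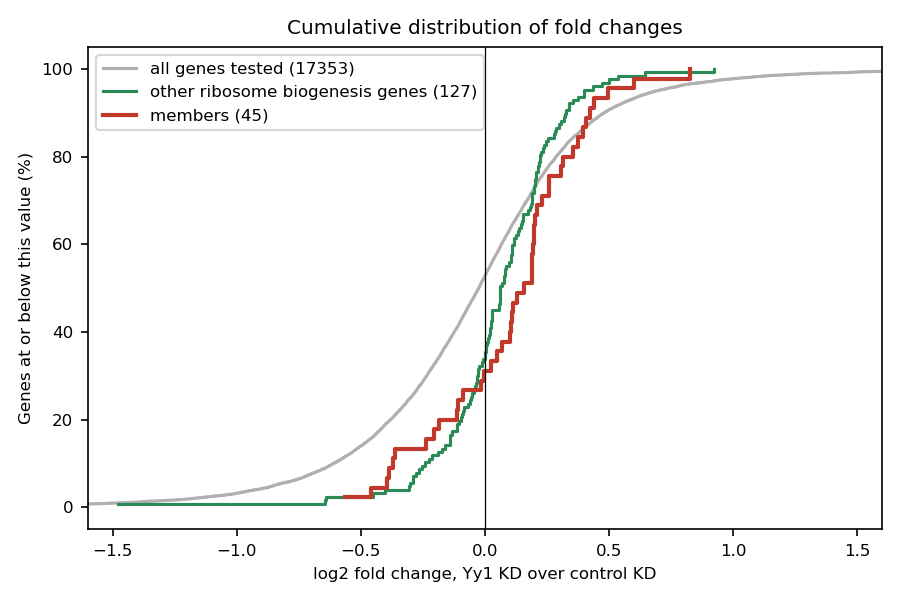
Share of genes (y axis, %) at or below each log2 fold change (x axis, *Yy1* KD over control KD) for the 45 members, the 127 other ribosome biogenesis genes and all 17353 genes tested; values beyond the range of the axis are not drawn. The medians are 0.16, 0.06 and -0.02.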

How the data were processed

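RNA-seq was performed on 3 control KD and 3 *Yy1* KD libraries of 10 pooled morulae each. According to the methods and the labels, Trim Galore (0.6.7), Hisat2 (2.2.1, mm10), bedtools for the removal of rRNA reads and featureCounts (2.0.1, GENCODE vM25, strand ignored, pairs on several genes divided among them) were used, and the authors deposited TPM. rRNA itself is therefore not measured. 0 columns of values were left unused.

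The authors tested counts with edgeR. Because TPM is not a count, limma (3.58.1, R 4.3.3) was fitted here to log2(TPM + 1) with a variance trend on 17353 genes, with Benjamini-Hochberg adjustment over all of them and a threshold of 0.05. A fold change on this scale is understated for low genes. Nothing in the labels says that the pools came from separate rounds of fertilization, so p-values measure the spread between these libraries. The fit was tested on simulated data.

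The members and lists were chosen with earlier results of these data known. All members could be named, with, from the wider lists, the called genes. Exosome genes that were not called are named beside them. Gene models came from GENCODE vM21 (GRCm38), in which 54312 of 55364 identifiers were found, and promoters from RefSeq (GRCm38.p6). Between 89.0% and 90.9% of values under 20 recovered pairs were whole within 0.02, over genes without exonic overlap. Alternatives were a pseudocount of 0.1, other filters, scalings and variance settings, the replicate number as a block, and fits without each library in turn. Added after seeing the data were limma-voom on recovered pairs, TPM rescaled over genes of at least 200 nt, and a loess correction for GC content and length. Tables and figures were made in Python 3.11.15 with numpy 2.4.6, pandas 2.3.3, matplotlib 3.10.9 and scipy 1.17.1.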

Additional observations from a re-analysis of the deposited data

How the results depend on the processing

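*Yy1* kept its call under every alternative, with a log2 fold change between -3.45 and -3.23. The estimates of 42 of the 45 members kept their sign under all 18 alternatives. The exceptions were near 0. *Polr1e* was 0.035 with median-ratio scaling, 0.078 with quantile normalization, 0.00812 with weights per library, 0.000283 with limma-voom, 0.058 with the GC content and length correction and -0.10 to 0.074 in the fits without single libraries, above 0 without control KD replicate 1, *Yy1* KD replicate 1 or *Yy1* KD replicate 2. *Nop9* was 0.024, 0.062 and 0.087 with median-ratio scaling, quantile normalization and the GC correction, and -0.056 to 0.025 without single libraries, above 0 without control KD replicate 2. *Rrp9* was -0.00157 among genes of at least 200 nt and -0.0067 to 0.089 without single libraries, below 0 without *Yy1* KD replicate 2 or 3.

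Counts of called members moved more, in parallel with calls over all genes. Without a variance trend, 1 member (*Utp20*) was called higher and 0 lower, and without a filter 2 and 1. Lower calls numbered 1 with median-ratio scaling or quantile normalization and 0 with the GC correction. With limma-voom, 14 were higher and 4 lower, and in the fits that left out 1 library 1 to 2 were higher and 0 lower, all in the small subunit processome. Of the other ribosome biogenesis genes, 18 were higher with limma-voom, 4 without a filter and 1 without a variance trend, and 1 to 2 higher and 1 to 3 lower without single libraries. By role, called genes of the small subunit processome numbered 3 with a pseudocount of 0.1, 8 with limma-voom, 2 without a filter and 1 without a variance trend, and large subunit genes 2 with a filter at a mean of 5 TPM, quantile normalization, the GC correction or rescaling over genes of at least 200 nt, and 3 with limma-voom. The call of *Nop10*, and with it all box H/ACA calls, was lost with median-ratio scaling, quantile normalization and the GC correction (0 genes each). Called RNA polymerase I genes numbered 1 with the GC correction (*Polr1a*, higher), 1 without a filter (*Polr1b*, lower) and 0 without a variance trend. limma-voom called 1 box C/D gene and 2 scaffold genes, and without a filter or a variance trend the box H/ACA, large subunit and scaffold groups had 0. The median of the members was 0.20 with median-ratio scaling, quantile normalization and the GC correction (0.1973, 0.1952 and 0.2041), and 0.12 to 0.17 without single libraries. The cause of these changes was not tested, other than that fewer libraries were used when 1 was left out.

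The replicate number was shared by the groups without a sign that it paired the libraries. The correlation of same-numbered deviations from group means was -0.0039, 0.032 and 0.075, and not every library correlated best with its own number. With a replicate block, 2 members (*Utp20* and *Nol11*) were called higher and 0 lower, which left 0 calls in the other roles, and of the other ribosome biogenesis genes 1 was higher and 1 lower. Over all genes 69 were higher and 218 lower, against 333 and 728 without the block. The lowest mean level of a member was 15.0 TPM, and the number of libraries, 3 in each group, limits the precision of all values.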

Other observations

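Members of this pathway carry other genes in their introns. On the same strand within 6 of the 45 members lay 17 annotated snoRNA genes of 68 to 133 nt, which are released from the host transcript when it is spliced. All 17 passed the filter and 0 were called (limma, 2 at an unadjusted p under 0.05, where 23.8% of all genes tested were, and 0 with limma-voom), with a median standard error of 0.35 and estimates above 0 in 7 and below 0 in 10. Within *Wdr43*, which rose, *Snord92* was at 54.6, 51.3 and 26.0 TPM in control KD and 95.7, 104.8 and 68.9 TPM in *Yy1* KD libraries, without overlap between groups (log2 fold change 1.06, standard error 0.30, limma adjusted p = 0.0894). The others in this host, *Snord53* and *Gm22858*, had log2 fold changes of 0.50 and -0.24 (standard errors 0.42 and 0.92). Within *Ncl*, which also rose, all 3 estimates were below 0, at -0.41 for *Snora75*, -0.36 for *Gm24148* and -0.01 for *Snord82*. Within *Nop58*, *Snord70* was at 39.97, 47.9 and 44.7 TPM in control KD and 50.5, 123 and 80.0 TPM in *Yy1* KD libraries (log2 fold change 0.83, standard error 0.29, limma adjusted p = 0.147), and *Gm26287*, *Snord11* and *Gm26293* of the same host had log2 fold changes of 0.61, 0.43 and -0.22. These genes were named after their values were seen. Reads from unspliced host RNA also fall on them, and 7 of the 17 overlap an annotated exon of the host.

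Of the 45 members, 13 (28.9%) started within 1000 nt of a tested protein-coding gene that is transcribed away from them on the other strand, with up to 300 nt of overlap allowed, against 12.1% of the 11154 tested protein-coding genes. None of the 14 neighbouring gene models was called by limma (0 of 14, with 6 at an unadjusted p under 0.05, where 23.8% of all genes tested were, and 2 called by limma-voom, which called 12.9% of all genes), and their median log2 fold change was -0.18. Beside *Utp4*, *Chtf8* is annotated under 2 identifiers and so counts among both the 14 and the 6 more than once. Of the 13 pairs by symbol, 5 had estimates of the same sign in member and neighbour and 8 of opposite sign. Beside *Utp18*, which rose, *Mbtd1* started 86 nt away and went from 25.6 to 33.5 TPM (log2 fold change 0.37, limma adjusted p = 0.0610). Beside *Bop1*, *Hsf1* started 145 nt away and went from 12.5 to 7.73 TPM (log2 fold change -0.64, limma adjusted p = 0.0584). Of the pairs with opposite signs, *Polr1a* (0.38) lies beside *Ptcd3* (-0.18), *Nol8* (0.35) beside *Cenpp* (-0.17), *Imp4* (-0.39) beside *Ccdc115* (0.12) and *Utp4* (0.13) beside *Chtf8* (-0.24). All of these pairs were named after their values were seen.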
